A study of Mus musculus with 6 samples.

Results

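The genes described here are the type 1 set of T cells: Ifng, Tbx21, Eomes, Runx3, Cxcr3, Stat4, Il12rb1, Il12rb2, Ifngr1 and Ifngr2. They were taken by symbol from the deposited normalized counts and FPKM and by Ensembl identifier from the raw counts, 10 of 37187 genes in the raw table, and all 10 passed the filter on low counts. Each library was made from Tregs, the regulatory CD4 T cells that carry Foxp3 and hold immune responses in check. They were sorted on CD4, CD25 and GITR from lymph nodes draining a B16.F10 tumour, a transplantable melanoma of C57BL/6 mice. All mice had received 300000 tumour cells under the skin and were sampled on day 14. The wild-type group (WT, replicates 1 to 3) was labelled C57BL6 and the knockout group (KO, replicates 4 to 6) il33-/- on a C57BL6 background, so the KO mice lacked Il33 in every cell and not only in Tregs. The labels give no age or sex and do not say whether a library held cells of 1 mouse or of a pool, so each p-value here refers to the spread between libraries, which may be technical.

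T-bet, encoded by Tbx21, is the transcription factor that sets the type 1 programme of CD4 T cells. With Runx3 it binds the Ifng gene, and it switches on Cxcr3, a chemokine receptor for interferon-induced ligands, and Il12rb2. IL-12 signals through a receptor of the Il12rb1 and Il12rb2 chains to STAT4, which acts on Ifng, and interferon-gamma signals through a receptor of the Ifngr1 and Ifngr2 chains. Tregs that keep Foxp3 while they make interferon-gamma are called fragile in the tumour field, and the comparison asks how far tumour-exposed Tregs take on this programme when IL-33, an alarmin cytokine, is absent.

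Sequences upstream of the members that rose, and of Il12rb2, a textbook target of T-bet, are shown first. The RefSeq promoter table (GRCm38.p6) matched 9 of the 10 genes with 11 annotated starts, of which Runx3 and Stat4 had 2 each. The 250 bases before each start were searched on both strands for TCACACC (a T-box site), TGTGGT (Runx) and TTCNNNGAA (STAT). The 3 motifs share no letters at the matches found. In each sequence, written 5′ to 3′ on the strand of the gene, capitals mark a match to 1 of these motifs.
Ifng, chr10:118440796-118441045, plus strand: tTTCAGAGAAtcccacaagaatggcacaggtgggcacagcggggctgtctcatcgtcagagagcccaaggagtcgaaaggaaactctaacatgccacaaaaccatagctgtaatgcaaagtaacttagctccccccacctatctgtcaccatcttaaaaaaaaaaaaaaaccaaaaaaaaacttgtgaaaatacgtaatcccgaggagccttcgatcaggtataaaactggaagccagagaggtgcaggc
Tbx21, chr11:97115332-97115581, minus strand: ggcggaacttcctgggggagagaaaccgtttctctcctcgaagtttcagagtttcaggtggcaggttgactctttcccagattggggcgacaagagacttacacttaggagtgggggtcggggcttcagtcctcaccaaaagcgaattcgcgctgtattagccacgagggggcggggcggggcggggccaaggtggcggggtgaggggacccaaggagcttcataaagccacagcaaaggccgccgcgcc
Il12rb2, chr6:67376189-67376438, minus strand: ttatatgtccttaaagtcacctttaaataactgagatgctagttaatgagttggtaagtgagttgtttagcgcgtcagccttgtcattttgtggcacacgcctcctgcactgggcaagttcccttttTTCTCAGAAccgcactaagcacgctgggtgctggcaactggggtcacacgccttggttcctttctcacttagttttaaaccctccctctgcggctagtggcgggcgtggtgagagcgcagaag
The Ifng window held the STAT letters TTCAGAGAA from base -249 to -241 before the start, and the Il12rb2 window held TTCTCAGAA from -123 to -115. The Tbx21 window held none of the 3 motifs. Among the other members Runx3 had 2 Runx matches, both before 1 of its 2 starts, and Cxcr3 had 1, each as ACCACA, the reverse complement. Of 32536 different upstream windows of this length, 7.04% held the STAT letters, 14.0% the Runx letters and 3.33% the T-box letters. The Tbx21 window held 16 CpG dinucleotides, the Ifng window 6 and the Il12rb2 window 10, against a median of 6 over all windows. A match describes letters and not a bound site.

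Of the 10 genes, Ifng and Tbx21 were higher in KO Tregs, and the other 8 did not pass the test. This is 2 of 10 against 6.50% of all 13626 genes tested (886 called), in the quasi-likelihood test of edgeR at an adjusted p (Benjamini-Hochberg) under 0.05. In all, 3.68% of genes tested were higher in KO and 2.83% lower. The median log2 fold change of the 10 was 0.155, and over all genes tested it was 0.0, with quartiles of -0.12 and 0.126. In Ifng, Tbx21, Eomes, Il12rb1 and Ifngr1 every KO library lay above every WT library, 5 of 10, where 13.7% of all genes tested did so. None of the 10 lay wholly below, where 12.6% of all genes did. The genes were chosen with earlier results of these data known, so these shares are descriptions.

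**Figure D1:**
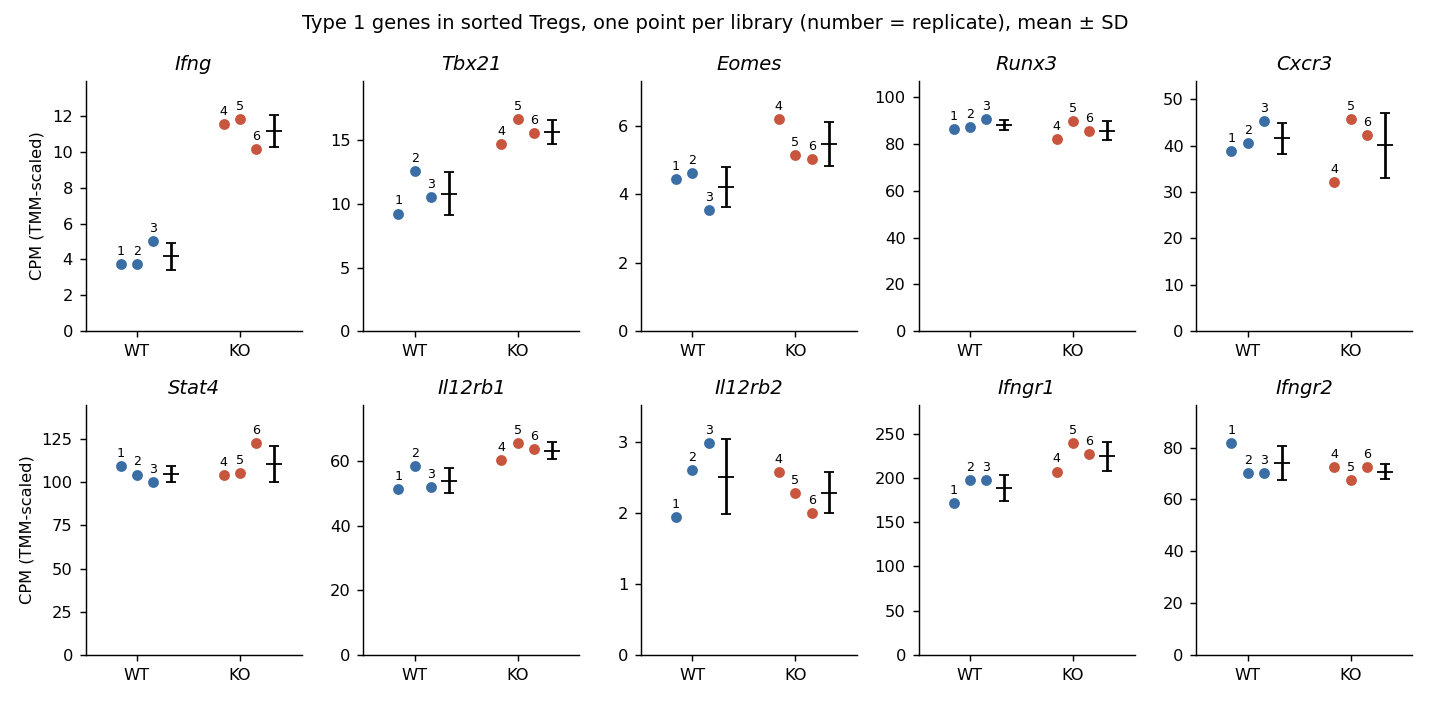
Depth-scaled read counts (CPM, with TMM factors; vertical axis from 0) of the 10 type 1 genes in each library, with replicate numbers beside the points and mean ± SD of 3 libraries to the right of each group. The KO points of Ifng sit between 10.1 and 11.8 CPM and the WT points between 3.74 and 5.04, while the groups overlap for Runx3, Cxcr3, Stat4, Il12rb2 and Ifngr2.

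Ifng (ENSMUSG00000055170, chromosome 10, 118441046 to 118445892, plus strand, GRCm38) encodes interferon-gamma, the defining cytokine of type 1 responses. It held 79, 72 and 91 reads in WT replicates 1, 2 and 3 and 242, 248 and 213 reads in KO replicates 4, 5 and 6. In CPM, read counts scaled to library depth with TMM factors, the WT libraries had 3.75, 3.74 and 5.04 and the KO libraries 11.5, 11.8 and 10.1. The lowest KO library was above the highest WT library, and within each group the spread was small beside the gap. The fold was 2.68 (95% interval 2.11 to 3.39), with an edgeR adjusted p of 0.000226. Ifng passed under all 19 alternative settings tried, with log2 fold changes from 1.20 to 1.64 and adjusted p-values of at most 0.0158. Both the largest change and the largest adjusted p came from the fit with the B cell marker score as a covariate.

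Tbx21 (ENSMUSG00000001444, chromosome 11, 97098071 to 97115331 on the minus strand) rose less. It had 9.26, 12.6 and 10.6 CPM in WT replicates 1 to 3 and 14.7, 16.7 and 15.6 CPM in KO replicates 4 to 6, with 629 reads in WT and 987 in KO. The groups did not overlap, but WT replicate 2 stood nearest to the KO libraries. The log2 fold change was 0.54 (SE 0.13), a fold of 1.45 (95% interval 1.20 to 1.76), with an edgeR adjusted p of 0.0263. The call was lost without WT replicate 1 (adjusted p = 0.115), WT replicate 3 (0.107), KO replicate 5 (0.103) or KO replicate 6 (0.0866) in the same edgeR test. With the B cell marker score as a covariate the log2 fold change of Tbx21 was 0.25 (edgeR adjusted p = 0.734). Without WT replicates 1 and 3, the libraries richest in B cell transcripts, it was 0.31. That fit left only WT replicate 2 in its group, the WT library with the most Tbx21.

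Reads of Ifng and Tbx21 were also set against Foxp3, the Treg lineage factor, within each library. Per 1000 Foxp3 reads there were 5.14, 4.66 and 7.0 Ifng reads in WT replicates 1 to 3 and 13.5, 15.0 and 11.9 in KO replicates 4 to 6. The same ratio for Tbx21 was 12.7, 15.7 and 14.7 in WT and 17.2, 21.1 and 18.4 in KO. Neither ratio overlapped between the groups, and the same held per 1000 Cd4 reads and per 1000 Cd3e reads. The ratio of Ifng to Tbx21 did not overlap either, with 40.5, 29.6 and 47.6 Ifng reads per 100 Tbx21 reads in WT and 78.3, 70.9 and 64.9 in KO. With library factors taken from Cd4, Cd3e and Cd3g, chosen after seeing the data, Ifng and Tbx21 kept log2 fold changes of 1.37 and 0.49 (edgeR adjusted p for Tbx21 = 0.0389).

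Eomes (ENSMUSG00000032446, chromosome 9, 118478212 to 118486132 on the plus strand) encodes eomesodermin, the T-box factor related to T-bet that is prominent in CD8 T and NK cells. It had 4.46, 4.63 and 3.54 CPM in WT and 6.20, 5.15 and 5.05 CPM in KO, from 64 to 130 reads per library. All KO libraries were above all WT libraries, though only by a small margin. The fold of 1.29 had a 95% interval from 0.989 to 1.69 and did not pass (edgeR adjusted p = 0.25). Runx3 (ENSMUSG00000070691, chromosome 4, 135120652 to 135177990 on the plus strand), the partner of T-bet at Ifng, had 86.2, 87.3 and 90.6 CPM in WT and 82.0, 89.8 and 85.4 CPM in KO. These groups overlapped, and the 95% interval of the Runx3 fold ran from 0.892 to 1.06.

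Cxcr3 (ENSMUSG00000050232, chromosome X, 101731535 to 101734269 on the minus strand), the homing receptor that T-bet induces, did not pass the test. Its WT libraries had 38.8, 40.7 and 45.3 CPM and its KO libraries 32.2, 45.7 and 42.3 CPM. KO replicate 4 was the lowest of all 6 libraries and KO replicate 5 the highest. The log2 fold change was -0.05 (95% interval -0.33 to 0.22, edgeR adjusted p = 0.862). It became 0.08 without KO replicate 4 and 0.01 without WT replicate 3, neither of which passed. The interval for Cxcr3 lay below the point estimate for Tbx21, while the difference between these genes was not tested.

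No gene of the IL-12 arm passed. Il12rb1 (ENSMUSG00000000791, chromosome 8, 70808449 to 70821424 on the plus strand), the receptor chain that IL-12 and IL-23 share, had 51.5, 58.5 and 51.9 CPM in WT and 60.4, 65.7 and 63.9 CPM in KO. The groups did not overlap, with WT replicate 2 close to KO replicate 4. Its fold of 1.17 (95% interval 1.06 to 1.30) did not pass (edgeR adjusted p = 0.0629). It passed without WT replicate 2 (0.0138), with upper-quartile factors (0.042) and with no filter on low counts (0.0244), and had an adjusted p of 0.855 in edgeR with the B cell marker score as a covariate.

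Il12rb2 (ENSMUSG00000018341, chromosome 6, 67291318 to 67376188 on the minus strand), the chain that gives IL-12 its signal in type 1 cells, was the lowest of the 10 genes per transcript length, at a mean FPKM of 0.629. It held 41, 50 and 54 reads in WT and 54, 48 and 42 in KO, or 1.95 to 2.99 CPM over all libraries. The groups overlapped fully, and the 95% interval of the Il12rb2 fold ran from 0.628 to 1.33. The gene overlaps Serbp1 on the other strand, which held 10924 to 13651 reads per library, and without knowledge of strand use reads from the overlap cannot be told apart. Stat4 (ENSMUSG00000062939, chromosome 1, 51987148 to 52107189 on the plus strand), which carries the IL-12 signal, had 109, 104 and 100 CPM in WT and 104, 105 and 123 CPM in KO. Only KO replicate 6 exceeded the WT libraries, and without it the log2 fold change of Stat4 was -0.0003. With all libraries the 95% interval of the Stat4 fold was 0.95 to 1.17.

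The chains of the interferon-gamma receptor had differences of opposite sign, and neither passed. Ifngr1 (ENSMUSG00000020009, chromosome 10, 19591949 to 19610229 on the plus strand), the chain that binds the cytokine, had 172, 197 and 198 CPM in WT and 207, 239 and 227 CPM in KO. No KO library lay within the WT range. The fold of 1.19 (95% interval 1.07 to 1.32) narrowly missed the threshold in edgeR (adjusted p = 0.0525), and DESeq2 gave 0.0202. Without KO replicate 4 or WT replicate 2 the edgeR adjusted p was 0.0253 and 0.0323, and without WT replicate 1 it was 0.211. Upper-quartile factors (0.0323) and no filter (0.0019) also let it pass, so Ifngr1 passed under 5 of the 19 alternatives. With the B cell marker score as a covariate its log2 fold change was 0.17 (edgeR adjusted p = 0.688). It also did not pass with T cell scaling (0.21) or without KO replicate 5 (0.195) in edgeR, or in limma on log2(FPKM + 1) (0.12).

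Ifngr2 (ENSMUSG00000022965, chromosome 16, 91547072 to 91565623 on the plus strand), the signalling chain, had 81.8, 70.3 and 70.1 CPM in WT and 72.3, 67.4 and 72.5 CPM in KO. WT replicate 1 stood above the rest, and the other 5 libraries overlapped. The 95% interval of its fold was 0.859 to 1.06 (edgeR adjusted p = 0.646). There were 2.10, 2.80 and 2.82 Ifngr1 reads per Ifngr2 read in WT and 2.86, 3.55 and 3.13 in KO, ranges that did not overlap but came close at WT replicate 3 and KO replicate 4. None of the 10 genes lies on chromosome 19, where Il33 is.

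**Figure D2:**
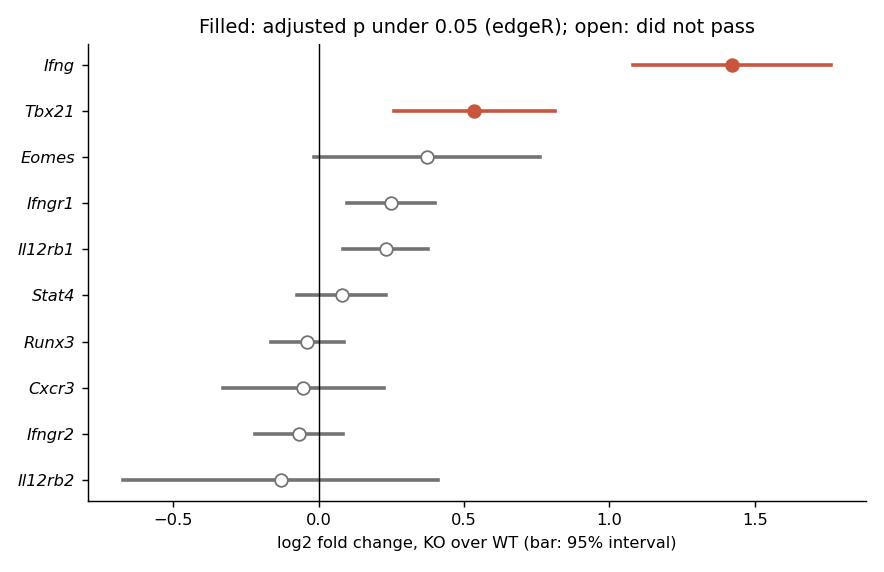
Log2 fold change of KO over WT for each of the 10 genes (horizontal axis; points) with 95% intervals from the edgeR fit (bars), filled where the adjusted p is under 0.05. The interval of Ifng runs from 1.08 to 1.76 and lies wholly above that of Tbx21, 0.26 to 0.81, and the intervals of Il12rb1 and Ifngr1 exclude 0 although neither gene passed after adjustment.

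Levels per transcript length, from the deposited FPKM (fragments scaled for transcript length and depth), differed widely among the 10 genes. Ifngr1 was highest at a mean FPKM of 72.2 over the 6 libraries, followed by Stat4 at 34.0, with no overlap between them. Cxcr3 (23.5 FPKM), Ifngr2 (21.7 FPKM), Il12rb1 (20.3 FPKM) and Runx3 (17.3 FPKM) came next, and each overlapped its neighbour in this order. Ifng at 6.32 and Tbx21 at 5.30 overlapped each other, Eomes had 1.16 and Il12rb2 0.629. In WT, Ifng had 3.45 ± 0.609 FPKM and Tbx21 4.33 ± 0.689 (SD, n = 3), with overlapping libraries. In KO, Ifng had 9.19 ± 0.774 FPKM and every library was above Tbx21 at 6.26 ± 0.395 (SD, n = 3). The Il12rb1 level was 29.2 ± 6.02 times that of Il12rb2 in WT and 37.0 ± 5.66 times in KO in FPKM (SD, n = 3), and these ranges overlapped. Tbx21 was 4.34 ± 0.784 times Eomes in WT and 4.85 ± 0.772 times in KO by the same measure.

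**Figure D3:**
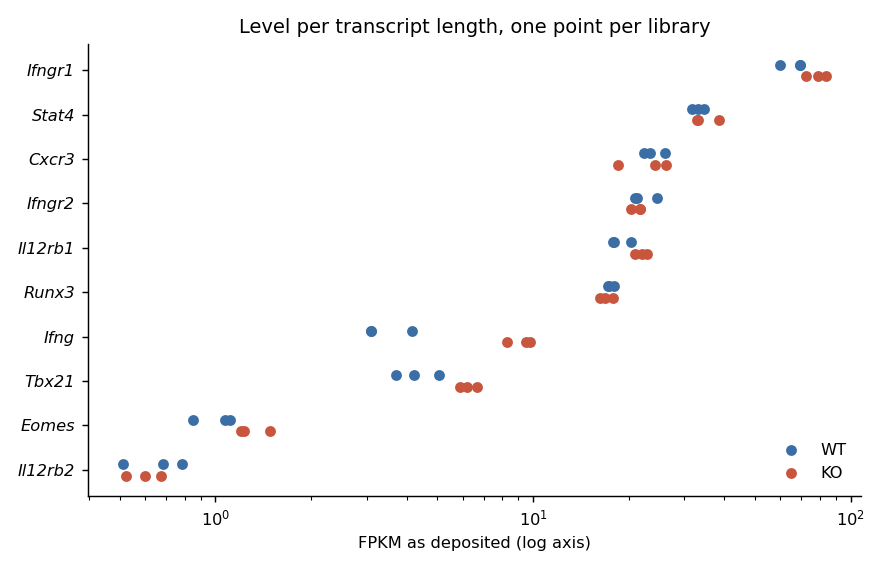
Deposited FPKM (horizontal log axis) of the 10 genes in each WT and KO library, ordered by the mean over 6 libraries. Ifngr1 and Stat4 stand at the top, and the KO points of Ifng, 8.31 to 9.76, lie to the right of its WT points, 3.09 to 4.15.

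The libraries were of even depth, with 18071928 to 21165063 counts. Il33, the deleted gene, held 7, 0 and 9 reads in WT replicates 1 to 3 and 3, 8 and 2 in KO replicates 4 to 6, too few in sorted T cells to check the genotype labels. The markers of the sort were high throughout. Cd4, Cd3e, Cd3g, Il2ra, Tnfrsf18 and Foxp3 summed to 3015 to 3425 CPM in WT and 3301 to 3507 CPM in KO. B cell markers (13 matched of 14) summed to 3322, 1611 and 2722 CPM in WT replicates 1 to 3 and 1258 to 1570 CPM in KO, and their part in the rise of Tbx21 was not tested beyond the covariate. The B cell marker score was 7.236, 5.557 and 6.877 in WT and 4.91, 5.318 and 4.584 in KO. These ranges did not overlap, so the covariate cannot fully separate B cell content from genotype. The covariate also widened the errors, with an SE for Ifng of 0.296 against 0.158 in the test as reported. The NK and innate lymphoid markers (11 of 11, Eomes among them) summed to 27.8 to 36.1 CPM in WT and 26.5 to 32.0 CPM in KO. Ncr1, the defining NK receptor, had 3.42, 2.96 and 3.04 CPM in WT and 1.53, 1.76 and 2.33 CPM in KO, and Cd8a and Cd8b1 summed to 32.7 to 36.3 CPM in WT and 22.3 to 30.98 CPM in KO. The NK sums overlapped between the groups, the CD8 sums did not, and Ncr1 did not pass (edgeR adjusted p = 0.0918). None of the 8 NK markers tested passed, and their median log2 fold change was -0.472. Among them only Prf1 (0.09) and Eomes (0.37) had positive values. The part of NK and CD8 T cells in the Ifng result was not tested. Markers of activated conventional CD4 T cells (6 of 6, Ifng itself among them) summed to 38.8 to 43.2 CPM in WT and 56.2 to 58.4 CPM in KO. Of these Cd40lg rose, with 30.3 to 34.5 CPM in WT and 42.3 to 42.7 CPM in KO, as did Ifng. Il2, at 0.476 to 1.40 CPM in all libraries, had a log2 fold change of -0.41, Il4 -0.25 and Il21 -0.21, and none of these passed. Csf2 was too low to be tested, and the median log2 fold change of the tested markers was -0.211. The part of such cells in the Ifng result was not tested, and in bulk RNA more cells of a type cannot be told apart from more RNA per cell. Gamma-delta T cell markers (2 matched of 3) summed to 7.58 to 10.9 CPM in WT and 6.0 to 9.28 CPM in KO. Dendritic and myeloid markers (11 of 11) summed to 42.1 to 59.95 CPM in WT and 33.5 to 49.5 CPM in KO, with no test of their part in the results. Melanoma markers (6 of 6) summed to 22.9 to 30.7 CPM in WT and 31.9 to 36.8 CPM in KO, with no overlap. Nearly all of this was Pmel, a melanosome protein, which had 20.7, 23.9 and 27.4 CPM in WT and 28.7, 33.8 and 33.5 CPM in KO and rose (edgeR adjusted p = 0.0376), a call lost without WT replicate 1, KO replicate 5 or KO replicate 6 (up to 0.142). Tyr, Dct and Tyrp1 were at 0 in every library, and the part of tumour cells in the results was not tested.

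Genes around these 10 were read from 7 lists. Beside each count of a list stand the shares over all genes tested, 3.68% higher in KO and 2.83% lower. On the list of interferon-gamma receptor signalling, none of 9 genes rose, 1 fell and the median log2 fold change was -0.002. Jak1 and Jak2, the kinases below Ifngr1 and Ifngr2, had log2 fold changes of -0.06 and -0.01 and did not pass. The gene that fell was Ptpn6, which encodes the phosphatase SHP-1, from 420.9, 331.6 and 395.7 CPM in WT to 303.4, 287.4 and 305.3 CPM in KO (edgeR adjusted p = 0.0206). Its call was lost on leaving out any library but WT replicate 2 (edgeR adjusted p of up to 0.0988). Ptpn6 was lowest among WT libraries in replicate 2, as the B cell markers were. With the B cell marker score as a covariate its log2 fold change was -0.10. The part of B cells in this fall was not tested beyond the covariate, which cannot fully separate B cell content from genotype.

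On the list of IL-12, IL-18 and IL-27 receptor signalling 1 of 17 genes passed, and it rose, with a median of 0.069. The number risen was 3 with upper-quartile factors, with no filter on low counts and in DESeq2, 2 without WT replicate 1, with T cell scaling, with the filter of 1 CPM in 3 libraries, with edgeR's other quasi-dispersion method, in limma-voom and in limma on logged values, and 0 with the B cell covariate. Il18r1, a chain of the receptor for IL-18, which acts with IL-12 on Ifng, had 101.0, 119.4 and 106.5 CPM in WT and 144.3, 152.1 and 139.6 CPM in KO, with no overlap. It rose by 0.42 on the log2 scale (SE 0.07, adjusted p = 0.00334 in edgeR), and no single library ended the call, though the B cell covariate did (adjusted p = 0.411). Gadd45b, an activator of p38 signalling downstream of IL-12 and IL-18 and chosen after its values were seen, had 80.4, 135 and 134 CPM in WT and 284, 300 and 269 CPM in KO. With a log2 fold change of 1.29 it missed the threshold (edgeR adjusted p = 0.0523), and WT replicate 1 was low among the WT libraries. Tyk2 and Jak2, the kinases of the IL-12 receptor, had -0.09 and -0.01 on the log2 scale.

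Of 11 tested transcription factors that act with T-bet and Runx3, 1 rose, none fell and the median was -0.046. Bhlhe40, a basic helix-loop-helix factor that favours Ifng over Il10 in T helper cells, rose from 37.5, 51.0 and 47.2 CPM in WT to 134.0, 118.9 and 111.9 CPM in KO. The rise of 1.43 on the log2 scale (SE 0.12, adjusted p = 0.000435 in edgeR) was close to that of Ifng. The call of Bhlhe40 held with the B cell covariate (adjusted p = 0.0113 in edgeR) and without each single library. Il10 itself, picked out after its values were seen, had 7.88, 13.6 and 12.2 CPM in WT and 16.9, 17.6 and 16.6 CPM in KO. Its log2 fold change of 0.61 was thus positive too, and it did not pass (edgeR adjusted p = 0.057). Hlx, another partner of T-bet, had a log2 fold change of -1.79 and Zeb2, which acts with T-bet in effector cells, -1.30. Neither passed in the edgeR test as reported (adjusted p = 0.056 and 0.106), and both were picked out after their values were seen. Both passed as lower in edgeR with no filter on low counts (0.00201 and 2.17e-08), in edgeR without WT replicate 2 (0.00812 and 0.0005) and in DESeq2 (0.044 and 0.000859). With the B cell covariate Hlx had -0.53 and Zeb2 0.09 on the log2 scale. Zeb2 had 10.2, 4.52 and 10.1 CPM in WT replicates 1 to 3, lowest where the B cell markers were lowest. Hlx was near the floor, with 1.14, 0.728 and 2.49 CPM in WT and 0.334, 0.619 and 0.286 CPM in KO. Its fold thus rests on few reads, and among WT libraries it too was lowest in replicate 2. For Zeb2 and Hlx the part of B cells was not tested beyond the covariate.

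Type 1 effector and homing genes gave no common direction. Of 20 tested, 4 rose and none fell, and the median on the log2 scale was -0.054. Those that rose were Ctsw, a cysteine protease of cytotoxic lymphocytes, Lta, which encodes lymphotoxin alpha, Nkg7, a granule protein, and Fasl, the death ligand. Ctsw had 85.9 to 88.8 CPM in WT and 105.8 to 127.0 CPM in KO (log2 fold change 0.41, SE 0.07), and Fasl had 2.93 to 4.58 CPM in WT and 6.0 to 6.19 CPM in KO (0.76, SE 0.19). Lta and Nkg7 had 0.34 and 0.51 on the log2 scale. Nkg7 and Fasl lost their call without any library but WT replicate 2 (edgeR adjusted p of up to 0.114 and 0.13) and Lta without WT replicate 3 (0.0676). The number risen was 2 on leaving out replicate 1 of WT or any 1 of the KO libraries, 1 without WT replicate 3 and 0 with the B cell marker score as a covariate. It was 6 without WT replicate 2 and 5 with no filter on low counts. The number lower was 2 with no filter on low counts and 1 without WT replicate 2 or KO replicate 5. Gzmb and Ccl5, further genes of type 1 effector cells picked out after their values were seen, had log2 fold changes of -0.55 and -0.27 and did not pass.

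Of 23 tested interferon-gamma induced genes 5 rose, none fell and the median was 0.052. In 5 genes every KO library lay above every WT library and in 6 every KO library lay below, where 13.7% and 12.6% of all genes tested did so. Ciita, the master factor of MHC class II, and Irf8, a factor of B and myeloid cells, were among the latter and were picked out after their values were seen. Ciita had 166.5, 50.3 and 119.0 CPM in WT and 28.4, 34.2 and 17.1 CPM in KO. Irf8 had 121.8, 69.6 and 112.2 CPM in WT and 66.7, 68.4 and 58.4 CPM in KO. Both were lowest among WT libraries in replicate 2, as the B cell markers were, and the part of B cells was not tested. The remaining genes wholly below in KO, Irgm1, Irgm2, Psmb8 and Upp1, were instead highest among WT libraries in replicate 2. Irgm1, for example, had 138.4, 180.1 and 146.5 CPM in WT. The number lower was 2 with no filter on low counts and without WT replicates 1 and 3 together, and 1 in DESeq2, in limma-voom, in limma on log2 normalized counts and without WT replicate 1 or WT replicate 2. On this list Gbp5 and Gbp6 could not be paired by identifier. Irf1, the first transcription factor that interferon-gamma induces, had 292.9, 341.9 and 307.0 CPM in WT and 473.5, 447.0 and 441.3 CPM in KO (log2 fold change 0.53, SE 0.06, edgeR adjusted p = 0.000354). The groups of Irf1 did not overlap, and no single library ended its call, though the B cell covariate did (edgeR adjusted p = 0.176). Serpina3g, Gbp2 and Cd274, which encodes PD-L1, had log2 fold changes of 0.41, 0.32 and 0.31, and Cxcl10, a ligand of CXCR3, had 3.70 to 8.69 CPM in WT and 12.6 to 16.7 CPM in KO (edgeR adjusted p = 0.0394). Cxcl10 lost its call without WT replicate 2 or any 1 of the KO libraries (edgeR adjusted p of up to 0.122) and with T cell scaling (0.0665). Serpina3g and Gbp2 have close paralogs, and Cd274 (chromosome 19, 29367455 to 29388095) lies near Il33 (29925114 to 29960718). Serpina3g lost its call without WT replicate 3 (edgeR adjusted p = 0.0518), and Gbp2 and Cd274 without 3 and 4 of the libraries (up to 0.0692 and 0.136). The number risen was 3 without WT replicate 1 or KO replicate 4, 2 without WT replicate 3 or KO replicate 5, 2 with T cell scaling and 0 with the B cell marker score as a covariate. It was 6 with no filter on low counts.

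Treg identity genes stood beside the type 1 genes with 6 of 16 higher and 1 lower, and a median log2 fold change of 0.211. Nrp1 and Ctla4, a surface receptor and an inhibitory receptor of Tregs, rose by 0.45 and 0.53 on the log2 scale, and Entpd1 and Ikzf4 by 0.35 and 0.32. Foxp3 had 719 to 803 CPM in WT and 789.7 to 857 CPM in KO, ranges that overlapped, and did not pass (edgeR adjusted p = 0.16). Satb1, a chromatin organiser, was the gene that fell (-0.22, edgeR adjusted p = 0.0394). Its call was lost on leaving out replicate 1 or 3 of WT or replicate 5 or 6 of KO (edgeR adjusted p of up to 0.178), with the B cell covariate (0.732), upper-quartile factors (0.0653) and T cell scaling (0.0864), and in limma-voom (0.0564) and limma on the deposited FPKM and normalized counts. The number higher was 2 on leaving out replicate 1 or 3 of WT or replicate 6 of KO, 3 without KO replicate 5, 4 without KO replicate 4, 4 with T cell scaling and 0 with the B cell marker score as a covariate. It was larger in other settings, with 9 without WT replicate 2, 10 with no filter on low counts, 8 in DESeq2 and 7 with upper-quartile factors. Entpd1 and Ikzf4 each lost their call without 4 of the 6 libraries (edgeR adjusted p of up to 0.106 and 0.111).

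**Figure D4:**
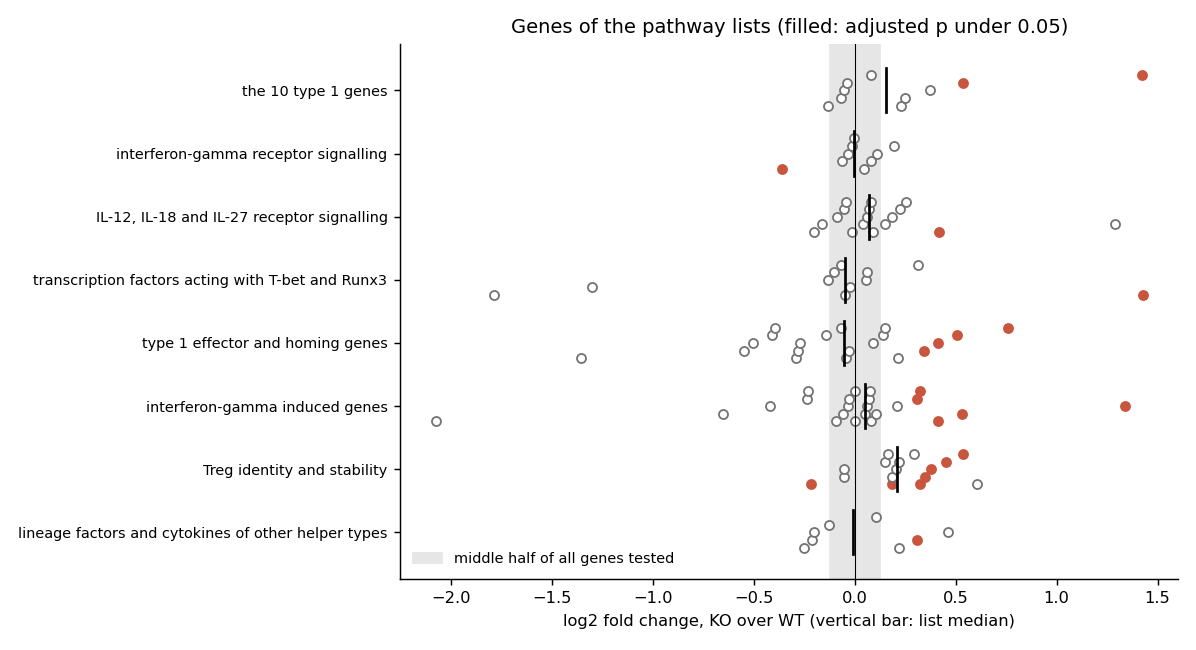
Log2 fold change of KO over WT (horizontal axis) of each tested gene on the 10-gene set and on the 7 lists around it, filled where the edgeR adjusted p is under 0.05, with a vertical bar at each list median and a grey band over the middle quartiles of all genes tested, -0.12 to 0.126. The Treg identity row has 7 filled points and the others at most 5, and the medians of the Treg identity list, 0.211, and of the 10 genes, 0.155, lie to the right of the band.

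The genes with profiles nearest to Ifng and Tbx21 over the 6 libraries were found by the Euclidean distance between log2(CPM + 0.5) values centred on each gene's mean, among 10897 genes. Nearest to Ifng were Zbtb10 (distance 0.116), Map2 (0.281), Ifrd1 (0.304), Tgif1 (0.332) and Csrnp1 (0.342), with log2 fold changes from 1.29 to 1.43. Zbtb10, a zinc finger factor, had 17.2, 18.7 and 23.6 CPM in WT and 51.1, 51.6 and 43.0 CPM in KO, so that as in Ifng WT replicate 3 was the highest of its group and KO replicate 6 the lowest. Ifrd1 lost its call without KO replicate 4 (edgeR adjusted p = 0.0514). Nearest to Tbx21 were Fam110a (distance 0.075), Ctla4 (0.115), Selenon (0.138), Il15ra (0.141) and Grhl1 (0.146), with log2 fold changes from 0.43 to 0.55. Selenon did not pass (edgeR adjusted p = 0.0775), and Fam110a and Grhl1 each lost their call without 4 of the 6 libraries (up to 0.111 and 0.154). Ctla4 had 578.7, 724.3 and 678.7 CPM in WT and 909.1, 1002 and 958.8 CPM in KO, and like Tbx21 it was highest in replicate 2 among WT and in replicate 5 among KO. Both groups of genes were picked for a likeness that contains the KO difference, so their folds are descriptions.

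**Figure D5:**
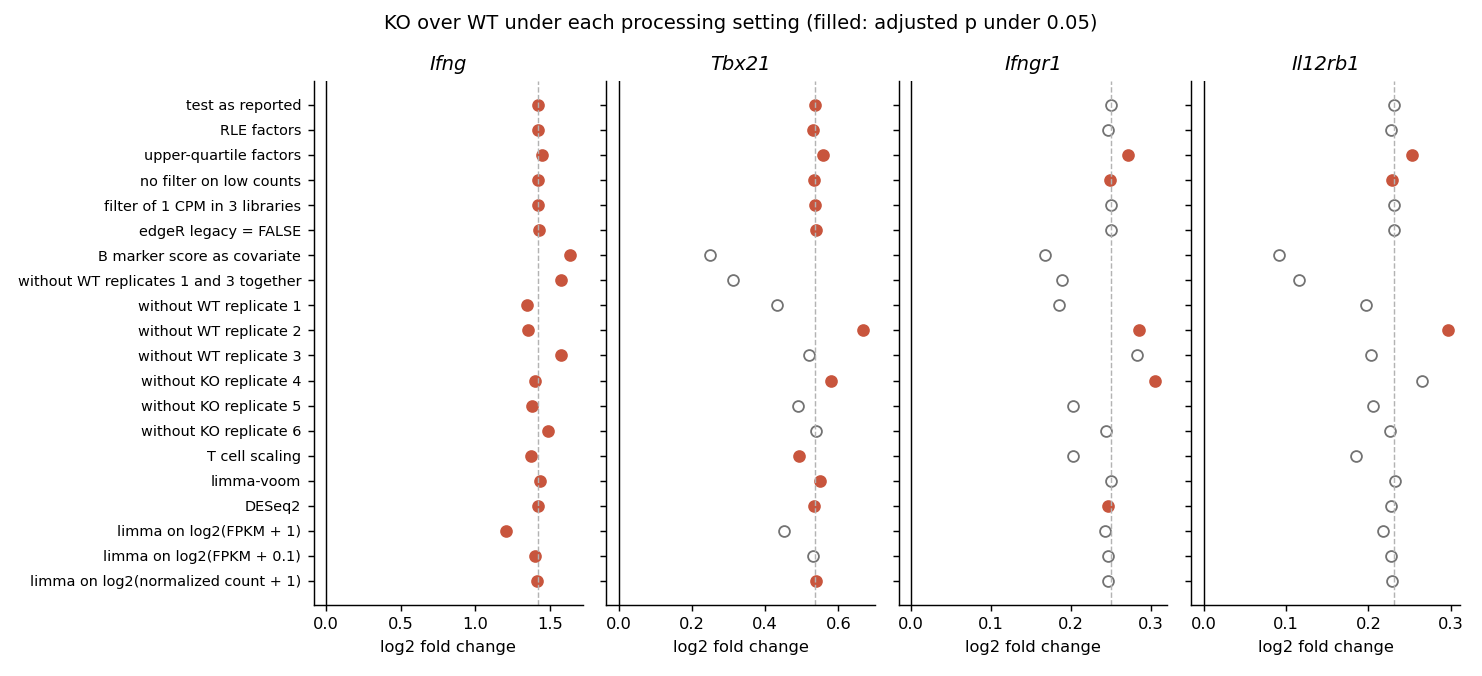
Log2 fold change of KO over WT (horizontal axis) for Ifng, Tbx21, Ifngr1 and Il12rb1 under the test as reported and 19 alternative settings (rows), filled where the adjusted p is under 0.05 and with a dashed line at the reported value. Ifng is filled in every row, Tbx21 in 11 of the 19 alternatives, Ifngr1 in 5 and Il12rb1 in 3.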

How the data were processed

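RNA from 6 libraries (3 WT, 3 KO) was sequenced, and the authors deposited 3 tables: a raw count for each Ensembl identifier, and, for each symbol, a normalized count (a signal) and FPKM. STAR 2.4.2a, bcl2fastq and DESeq2 and the build GRCm38 are named in the submitters' processing notes. The counting tool, the strand setting and the annotation were not stated in the sources used here. For 9335 genes with over 50 counts in every library, 99.893% of the deposited normalized counts equalled the raw count divided by 1 factor per library within 1e-06. GENCODE M21 matched 35412 of 37187 identifiers.

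The tests of raw counts used edgeR 4.0.16 under R 4.3.3 (filterByExpr, TMM, robust glmQLFit, glmQLFTest, two-sided, Benjamini-Hochberg over 13626 genes, threshold 0.05). Standard errors came from the F statistic and 95% intervals from its degrees of freedom. Alternatives were DESeq2 1.42.0, limma-voom and limma 3.58.1 on log2(normalized count + 1), on log2(FPKM + 1) and on log2(FPKM + 0.1), RLE and upper-quartile factors, no filter or 1 CPM in 3 libraries, edgeR's other quasi-dispersion method, a B cell marker score (mean log2 CPM of 13 markers) as covariate, and leaving out libraries. T cell scaling (factors from Cd4, Cd3e and Cd3g) was added after seeing the data. On simulated data for this comparison (200 of 13626 genes changed, 5 draws) the test found 29.1% of the genes changed 1.25-fold, 67.3% at 1.5-fold, 84.8% at 2-fold and 98.8% at 4-fold, and 4.6% of its calls were false. The draws took each gene's dispersion from the fitted trend, treated genes as independent and held no B cell difference between libraries. These shares therefore do not cover such spread in the real libraries.

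The 10 genes, the 7 lists and the motifs were chosen with earlier results of these data known. Named were the 10 genes, up to 4 called genes with the smallest p of each list, and the 5 genes of at least 1 mean CPM nearest in profile to Ifng and to Tbx21, leaving out pseudogenes, clone names, predicted genes and antigen receptor segments. Other genes named, such as Cxcl10, Satb1, Pmel, Jak1 and Cd40lg, were chosen after their values were seen. Library totals of 18071928 to 21165063 counts set the depth. Between libraries of a group chi-square over degrees of freedom was 5.08 to 14.4, more than sampling noise allows. Some genes of the lists are not reported here.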

Additional observations from a re-analysis of the deposited data

How the results depend on the processing

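Ifng kept its call under all 19 alternatives and Tbx21 under 11. The number of the 10 genes called was 2, and it was 4 with upper-quartile factors and with no filter on low counts, and 1 with the B cell marker score as covariate, without WT replicates 1 and 3 together, and with limma on log2(FPKM + 1) and on log2(FPKM + 0.1). Leaving out single libraries gave 1 to 4. The number of all genes called was 886, and it was 1645 with no filter, 73 with the B cell covariate, 282 without WT replicates 1 and 3 together, 587 with T cell scaling, and 374 and 383 with limma on log2(FPKM + 1) and log2(FPKM + 0.1). Leaving out single libraries gave 367 to 1364 calls. Among the 10 genes, values near 0 changed sign. With the B cell covariate Cxcr3 went to 0.0022 and Ifngr2 to 0.0328, and without WT replicates 1 and 3 together Ifngr2 went to 0.0089. Cxcr3 went to 0.0117 and Il12rb2 to 0.0109 without WT replicate 3, and Cxcr3 to 0.0844 without KO replicate 4. Stat4 went to -0.0003 without KO replicate 6 and Ifngr2 to 0.0111 without WT replicate 1. Of the list genes, Zeb2 went from -1.30 to 0.09 with the B cell covariate. None of these passed. Without single libraries Cxcr3 ranged from -0.1559 to 0.0844, Stat4 from -0.0003 to 0.1232, Il12rb2 from -0.2872 to 0.0109 and Ifngr2 from -0.1061 to 0.0111. Fewer libraries lower the power of the test, and without WT replicates 1 and 3 together only WT replicate 2 was left in its group. The B cell score did not overlap between the groups, so its covariate cannot fully separate B cell content from genotype. Otherwise the cause of these changes was not tested. T cell scaling moved the median of all genes to -0.049. No paired analysis was possible because the replicate numbers of the groups, 1 to 3 and 4 to 6, are not shared. Counts of 41 to 130 reads per library limit Il12rb2 and Eomes.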

Other observations

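Of 15 lineage factors and cytokines of type 2, type 17 and follicular helper cells 8 could be tested, and 1 of them, Gata3, rose, with 105.4, 121.4 and 109.5 CPM in WT and 128.0, 140.6 and 147.5 CPM in KO (edgeR adjusted p = 0.0206). Gata3 lost its call on leaving out replicate 1 or 3 of WT or replicate 5 or 6 of KO (edgeR adjusted p of up to 0.106), with T cell scaling (0.0772) and with the B cell marker score as a covariate (0.757). The median log2 fold change of the 8 was -0.009. Bcl6, the factor of follicular helper cells, had a log2 fold change of -0.20 and did not pass. The type 2 and type 17 cytokines named here were scarce: Il17a was at most 0.238 CPM in any library, Il5 at most 0.143, Il13 at most 0.617 and Il4 at most 1.52, where Ifng had at least 3.74. Il21, a cytokine of follicular helper cells, had 2.52, 3.80 and 1.05 CPM in WT and 1.76, 2.67 and 1.95 CPM in KO and did not pass. These levels are relative to library depth and not per length.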
